A study of Mus musculus with 3 samples.

Results

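In fully-grown mouse oocytes, 41406 windows of 2 kb carried H3K36me3 without H3K4me3 or H3K27me3 and lay more than 10 kb from any annotated gene. The mark was mapped by an ultra-low input native ChIP-seq protocol, in which chromatin is cut with micrococcal nuclease and pulled down without cross-linking. Each of the 3 samples pooled about 280 oocytes at the germinal vesicle (GV) stage from wildtype C57BL6/Babr females aged 25 days, so that they made up 1 group without a treated or mutant arm. Every value is an average over a pool, and the labels do not divide the oocytes by the state of their chromatin. Per the study's methods, replicate 2 was made with less antibody than replicates 1 and 3.

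A window was chosen when the mean RPKM of the 3 replicates (the authors' name for the deposited values) was above 1, when the deposited category named neither H3K4me3 nor H3K27me3, and when the window shared no base with a GENCODE M21 gene extended by 10 kb on both sides. These windows, called distal windows from here on, made up 3.49% of the 1186323 valid windows and covered 82.8 Mb. They were 10.98% of all windows enriched for H3K36me3 and 14.2% of the windows with H3K36me3 as the sole mark. The deposited values are proportional to reads per window, but it is uncertain whether window length enters them. Read as CPM (scaled to library depth alone), the values would put 1.07 times the reads of the whole library in the valid windows, and read as true RPKM 2.13 to 2.14 times, so the threshold of 1 is a threshold on the deposited scale. The number and the level of the distal windows follow from the threshold and are given as a description. Where a level was tested, windows were chosen with 2 replicates and measured in the third, which took no part in the choice.

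H3K36me3 is laid down by SETD2, an enzyme that travels with elongating RNA polymerase II, and in most tissues the mark lies over the bodies of transcribed genes. It is bound by the PWWP domain of the de novo DNA methyltransferases, and in growing oocytes DNA methylation is placed mainly over transcribed regions, which include many transcripts that start outside annotated promoters. H3K4me3 is best known from promoters but forms broad domains over untranscribed DNA in oocytes, and H3K27me3 is a repressive mark set by Polycomb repressive complex 2.

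As examples, the middle 300 bases of the strongest window are printed for 4 of the 5 longest runs from the RefSeq GRCm38.p6 genome. A run is a row of neighbouring distal windows without a break. The plus strand is given from 5′ to 3′, and capitals mark CpG, the site of DNA methylation. The sequences are from chr11:52678851-52679150 (run 1), chr12:9260851-9261150 (run 2), chr10:72798851-72799150 (run 3) and chr16:5698851-5699150 (run 5).
run 1: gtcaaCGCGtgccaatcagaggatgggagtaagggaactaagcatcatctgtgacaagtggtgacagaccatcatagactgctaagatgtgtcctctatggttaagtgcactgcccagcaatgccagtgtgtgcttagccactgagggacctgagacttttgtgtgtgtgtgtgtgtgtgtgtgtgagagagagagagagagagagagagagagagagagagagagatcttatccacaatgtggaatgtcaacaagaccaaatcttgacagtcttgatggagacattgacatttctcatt
run 2: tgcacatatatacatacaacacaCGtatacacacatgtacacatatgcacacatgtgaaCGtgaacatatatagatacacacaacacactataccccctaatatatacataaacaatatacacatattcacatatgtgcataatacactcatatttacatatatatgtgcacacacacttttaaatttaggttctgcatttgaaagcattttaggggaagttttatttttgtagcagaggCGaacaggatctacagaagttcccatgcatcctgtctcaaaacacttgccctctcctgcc
run 3: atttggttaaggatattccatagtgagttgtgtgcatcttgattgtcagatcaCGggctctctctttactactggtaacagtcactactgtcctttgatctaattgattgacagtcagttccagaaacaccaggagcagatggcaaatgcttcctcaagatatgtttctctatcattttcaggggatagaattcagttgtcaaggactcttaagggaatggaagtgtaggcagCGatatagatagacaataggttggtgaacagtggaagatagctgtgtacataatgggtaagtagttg
run 5: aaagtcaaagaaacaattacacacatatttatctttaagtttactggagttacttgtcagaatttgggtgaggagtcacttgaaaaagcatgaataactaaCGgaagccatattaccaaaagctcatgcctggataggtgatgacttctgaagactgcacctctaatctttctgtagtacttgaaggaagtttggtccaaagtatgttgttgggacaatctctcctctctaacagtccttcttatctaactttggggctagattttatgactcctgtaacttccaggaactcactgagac
The 4 stretches held between 1 and 3 CpG each, and GC content lay between 35.7% in run 2 and 46.7% in run 1. Soft-masked bases, which the genome's annotation marks as repeats, took 64.3% of the stretch in run 2 and 0% of that in run 3. Over all windows of these runs the share was 17.8% in run 2 and 22.6% in run 3. A single stretch thus does not stand for its run. The window around the first stretch had 6.11, 4.76 and 13.2 RPKM in replicates 1, 2 and 3, from 45, 12 and 39 reads. At this depth a single window was thus counted coarsely, which is why runs of windows carry most of what follows.

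The label of the cells was checked on the bodies of marker genes. All 12 oocyte genes on the list, among them Zp3, a component of the zona pellucida, and Gdf9, a growth factor secreted by the oocyte, had a mean RPKM above 1, with a median of 2.13. Of 10 genes of granulosa cells, the somatic cells that surround the oocyte, 3 were above 1 (Kitl, Hsd17b1 and Amh), and the median of the 10 was 0.477. Among all protein-coding genes with valid windows, 52.5% had a mean above 1, so a level above 1 does not by itself mark an oocyte gene. The median of the granulosa list was below that of the oocyte list, and the part of granulosa chromatin in the distal windows was not tested. The valid windows held 7888140 reads in replicate 1, 2692510 in replicate 2 and 3166564 in replicate 3, and 6.92%, 7.56% and 8.45% of them fell in the distal windows.

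Most distal DNA did not carry the mark. Of 395177 valid windows more than 10 kb from genes, enriched or not, 195210 had no H3K4me3 or H3K27me3 call, and 21.2% of these were enriched for H3K36me3. Among all valid windows without these 2 calls the share was 48.1%, and among all valid windows it was 31.8%. The remaining 153804, which lay as far from genes and had none of the 3 calls, are the comparison used below. H3K27me3 alone marked 23.1% of all windows this far from genes and H3K4me3 alone 15.9%, against 10.5% for H3K36me3 alone.

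The distal windows had a mean of 1.79, 1.95 and 2.19 RPKM in replicates 1, 2 and 3 (1.98 ± 0.20, SD, n = 3). A single window ranged from 1.00 to 10.2, with a median of 1.79 and a median of 23 reads over the replicates together. H3K36me3-only windows inside genes had 2.22 ± 0.13 (n = 3), intergenic ones within 10 kb of a gene had 1.96 ± 0.17, and distal windows without a call had 0.285 ± 0.042. Of the distal windows, 56.4% were above 1 in each replicate, against 69.5% inside genes, 57.2% within 10 kb of a gene and 19.7% of all valid windows. The first 3 groups were chosen on the mean of these same replicates and all valid windows were not. The gap to the last share thus follows from the choice. Among all 376991 windows with a mean above 1, whatever their other marks, 234063 were above 1 in each replicate. Just inside the threshold, 3506 distal windows between 1.0 and 1.1 had medians of 0.951, 1.19 and 1.02 RPKM in replicates 1, 2 and 3. Just outside it, 3950 windows between 0.9 and 1.0 had medians of 0.951, 0.793 and 1.02, so that the 2 sides differed by 1 read in the median of replicate 2 and by none in the others.

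In the replicate left out of the choice, distal windows had 1.68, 1.73 and 1.97 RPKM in replicates 1, 2 and 3 (1.79 ± 0.15, n = 3). The mark was therefore present in libraries that the choice had not used. Distal windows without a call had 0.330 ± 0.025 in the same design, a log2 ratio of 2.44 ± 0.23 that was above 0 in 3 of 3 replicates (exact permutation test by sign flips over replicates, two-sided, p = 0.25, BH-adjusted p = 0.375). With 3 replicates this test cannot give a p below 0.25, in this or any later comparison. Of the distal windows chosen by the other 2 replicates, 74.4%, 66.1% and 76.8% were above 1 in replicates 1, 2 and 3, beside 32.0%, 32.5% and 35.1% of all valid windows. Of distal windows without a call, 6.07%, 10.6% and 11.7% were above 1.

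Distal windows held less H3K36me3 than windows inside genes and about as much as intergenic windows close to genes. Genic windows had 2.16 ± 0.11 in the replicate left out. The log2 ratio of distal to genic windows was −0.31 in replicate 1, −0.31 in replicate 2 and −0.21 in replicate 3 (−0.28 ± 0.05, exact permutation p = 0.25, BH-adjusted p = 0.375 over 3 comparisons). It was −0.47 ± 0.03 without replicate 1, when windows were chosen with 1 replicate and measured in the other, and −0.060 ± 0.077 at a threshold of 2 RPKM. Against intergenic windows within 10 kb of a gene, which had 1.80 ± 0.13, it was −0.0065 ± 0.0193 with both signs among the replicates (exact permutation p = 0.75, adjusted p = 0.75).

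The gap to genic windows went with the length of the run. Distal windows that stood alone had 1.09 ± 0.06 RPKM in the replicate left out and genic ones 1.41 ± 0.07, a log2 ratio of −0.37 ± 0.05 (n = 3). In runs of 2 to 4 windows the log2 ratio was −0.11 ± 0.06, in runs of 5 to 9 it was −0.043 ± 0.062, and in runs of 10 to 19 it was −0.0088 ± 0.0595. In runs of 20 windows or more, distal windows had 2.51 in replicate 1, 2.55 in replicate 2 and 2.74 in replicate 3, and the log2 ratio was 0.047 ± 0.035. The exact permutation p was 0.25 for single windows (adjusted p = 0.417 over 5 lengths) and 1 for runs of 10 to 19 windows (adjusted p = 1). For runs of 20 windows or more, where the distal mean was 2.60 and the genic mean 2.51, the exact permutation p was 0.25 (adjusted p = 0.417), with the distal value the higher one in 3 of 3 replicates.

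**Figure D1:**
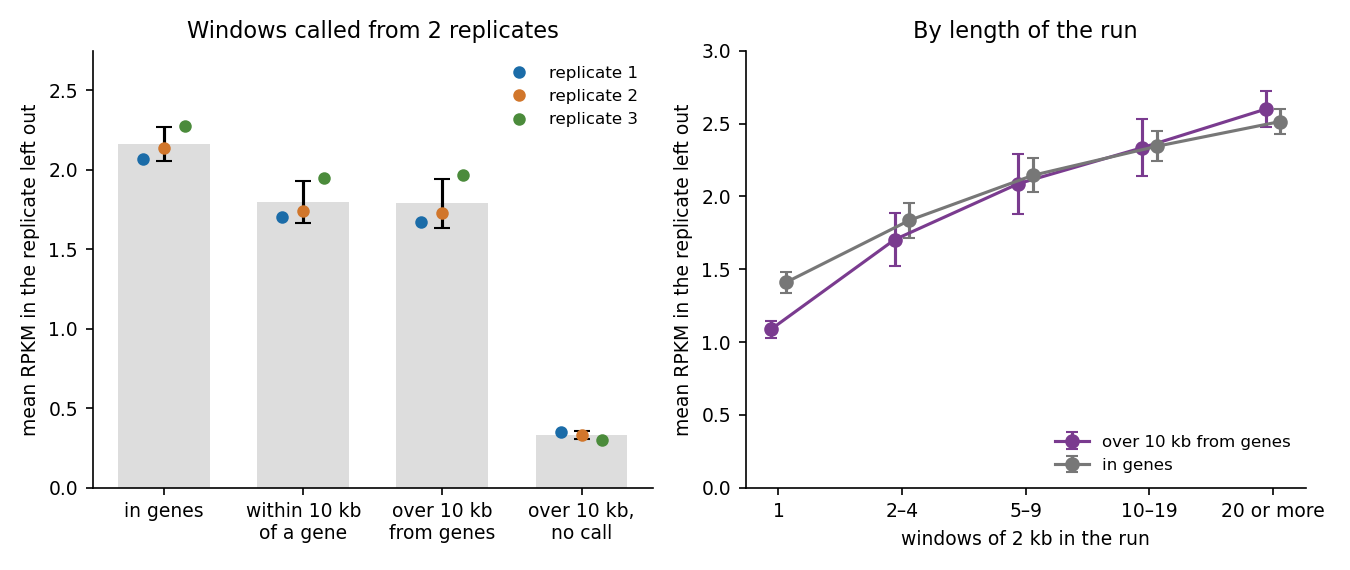
Mean H3K36me3 (RPKM) in the replicate that took no part in choosing the windows. Left, bars give the mean of 3 replicates with SD and points the replicates, for H3K36me3-only windows inside genes, within 10 kb of a gene and over 10 kb away, and for distal windows without a call: the distal windows sit between 1.68 and 1.97, far above the 0.330 of windows without a call. Right, points give the mean ± SD (n = 3) by the number of windows in the run: distal and genic values differ for single windows (1.09 against 1.41) and come together in longer runs.

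The 41406 distal windows formed 15550 runs. A single window made up 50.7% of the runs but held 19.1% of the windows. At the other end, 2305 runs of at least 10 kb, here called long runs, held 47.1% of the windows over 39.0 Mb, and 616 runs reached 20 kb, 41 reached 50 kb and the longest spanned 84 kb. The share of windows above 1 in each replicate was 30.4% for single windows and 81.2% in runs of 20 windows or more. As whole units, 2235 of the long runs (96.96%) had a mean above 1 in each replicate, with a run median of 2.15 RPKM, a highest value of 4.69 and a median of 188 reads. Their windows were chosen on the mean of these same 3 replicates, so this share follows in large part from the choice and is a description. Across long runs, Pearson's r between replicates was 0.57 for 1 and 2, 0.60 for 1 and 3 and 0.46 for 2 and 3, as a description over runs that share their libraries. Over all 41406 distal windows, taken one by one, the same values were 0.29, 0.40 and 0.17.

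**Figure D2:**
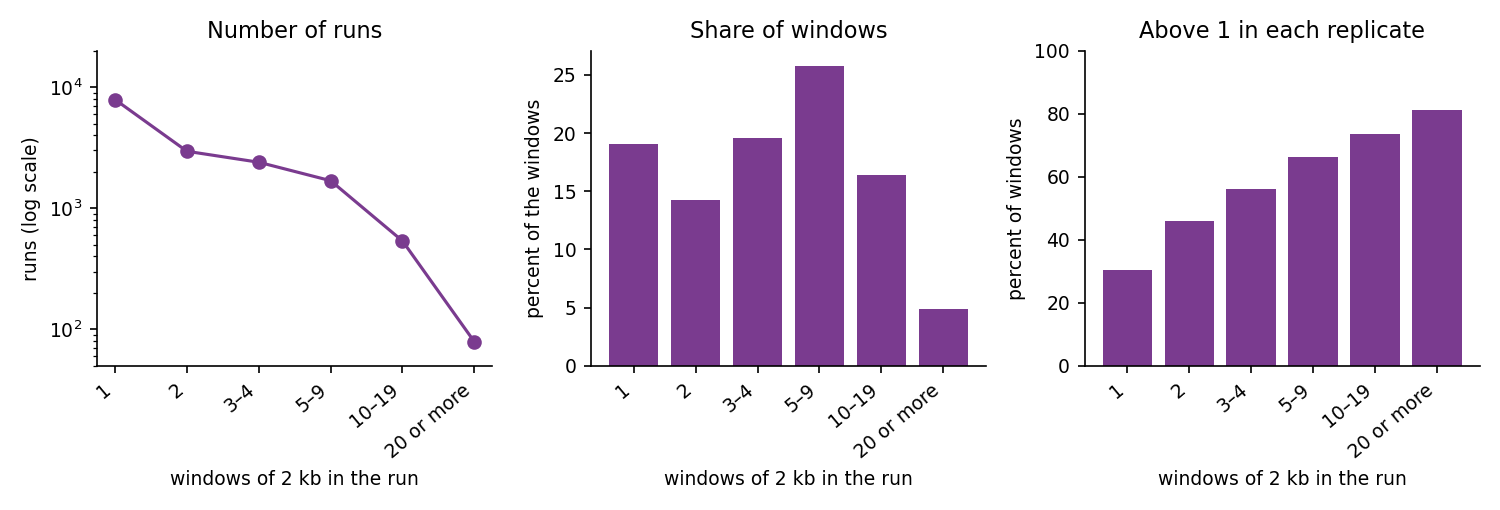
Distal runs by the number of 2 kb windows they hold. From left to right the panels give the number of runs on a log axis, the share of the 41406 windows in such runs, and the percent of those windows above 1 RPKM in each replicate, which lies between 30.4% for single windows and 81.2% for 20 windows or more.

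In the main, the distal windows did not join a gene through unbroken H3K36me3. When all neighbouring windows enriched for H3K36me3 were joined, whatever other mark they had, 80.8% of the distal windows belonged to domains that stayed more than 10 kb from genes throughout. A further 8.94% lay in domains that came within 10 kb of a gene without touching it, and 10.2% in domains that reached a gene. The last share depended on the settings, being 1.35% at a threshold of 2 RPKM and 20.6% when gaps of 1 window were bridged. Of the 4610 edges of long runs, 43.8% met a distal window without any call, 28.5% a distal window where H3K36me3 went on together with H3K4me3 or H3K27me3, and 10.7% an H3K36me3 window within 10 kb of a gene. A window that the authors had left out lay at 8.87% of the edges. Distal windows with H3K4me3 alone were met at 6.38% and with H3K27me3 alone at 0.26%.

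Long runs lay in stretches of DNA that were rich in H3K36me3 beyond the run itself. In the replicate left out, the first window inside the edge had 2.00 ± 0.20 RPKM (n = 3) and the next windows between 2.16 and 2.35. The first window outside had 1.49 ± 0.13, and values stayed between 1.43 and 1.55 over the 20 kb outside. Between 20 and 30 kb away all windows had 1.37 ± 0.10, and between 90 and 100 kb 1.05 ± 0.03. Windows over 10 kb from genes, with or without the mark, had 1.45 ± 0.12 in the nearest 10 kb and 0.912 ± 0.030 between 90 and 100 kb, while all such windows of the genome had 0.548 ± 0.022.

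Around long runs, H3K4me3 calls were about as frequent as in all DNA this far from genes or somewhat more so, and H3K27me3 calls were fewer. A window with H3K4me3 lay within 10 kb of an edge in 75.8% of long runs (1748 of 2305), on 1 side in 47.7% and on both in 28.2%. Around distal windows without a call it lay within that reach for 51.9%. By the rule, a window with an H3K4me3 or H3K27me3 call ends a run, so calls beside an edge are in part built into the choice. The windows without a call were taken one by one and held more soft-masked bases, 49.0% against 27.3% in long runs. The 2 groups are thus not like for like. For H3K27me3 the shares were in the opposite order, 20.04% of long runs against 59.7% of windows without a call. Just outside the edge, 32.3% of windows had an H3K4me3 call and 5.40% an H3K27me3 call. The H3K27me3 share was 3.04% at 3 kb outside and 9.98% at 19 kb, and the H3K4me3 share lay between 25.8% and 32.3% throughout. Of all windows more than 10 kb from genes, 25.8% had H3K4me3 and 32.4% had H3K27me3. The calls of these marks came as 1 call per window without replicates, so no test was made.

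**Figure D3:**
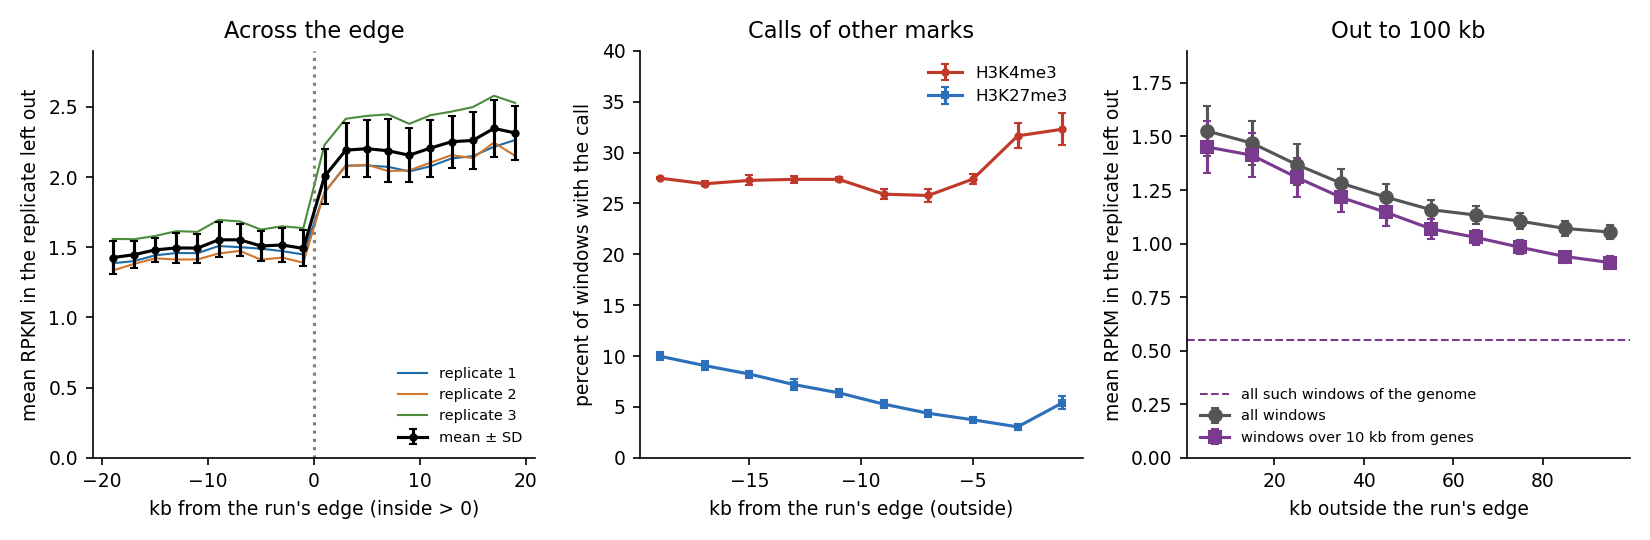
Profiles at the edges of long runs. Left, mean RPKM in the replicate left out by distance from the edge in kb, as 1 line per replicate and as mean ± SD: the level steps from 1.49 outside to 2.00 inside. Middle, percent of windows outside the edge with H3K4me3 (circles) or H3K27me3 (squares) calls, mean ± SD over the 3 choices of replicates. Right, mean RPKM in bins of 10 kb out to 100 kb, for all windows and for windows over 10 kb from genes, which at 0.912 in the last bin are still above the dashed line at 0.548 for all such windows of the genome.

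Over distal DNA without H3K4me3 and H3K27me3, enriched or not, the level went with that of the nearest gene. To keep both apart, genes were divided by their body level in 2 replicates and the distal windows without H3K4me3 and H3K27me3, enriched or not, were measured in the third. At 10 to 50 kb from a gene above 1, these windows had 1.21, 1.22 and 1.35 RPKM in replicates 1, 2 and 3. At the same distance from a gene at or below 1 they had 0.503, 0.487 and 0.492, so that the 2 sets did not overlap. Enriched and other windows were measured together, so these values mix the enriched share with the level of the enriched windows. The log2 ratio was 1.35 ± 0.10 at 10 to 50 kb, 1.02 ± 0.09 at 50 to 100 kb and 0.78 ± 0.07 beyond 100 kb (n = 3, exact permutation p = 0.25 for each, adjusted p = 0.25 over 6 comparisons). With protein-coding genes as the nearest gene it was 1.11 ± 0.08, 0.66 ± 0.07 and 0.49 ± 0.07. The soft-masked share moved with this result, being 40.9% beside genes above 1 and 47.1% beside the others at 10 to 50 kb, and its part in the difference was not tested.

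Distance to the nearest gene, whatever the level of that gene, went with smaller differences. Distal windows without H3K4me3 and H3K27me3 had 0.700 ± 0.023 RPKM at 10 to 20 kb from a gene, 0.627 ± 0.012 at 50 to 100 kb and 0.514 ± 0.007 at 200 to 500 kb. The share enriched for H3K36me3 was 24.4%, 20.3% and 14.7% in these bins. Only 213 such windows lay beyond 500 kb, of which 2.35% were enriched. The fall with distance was not the same beside all genes. Beside genes above 1, windows had 1.26 RPKM at 10 to 50 kb, 1.03 at 50 to 100 kb and 0.837 beyond 100 kb. Beside genes at or below 1 they had 0.494, 0.508 and 0.486. The enriched windows lay between 10.001 and 605 kb from a gene, with a median of 39.1 kb, against 47.5 kb for distal windows without a call, and 16.5% of them lay beyond 100 kb.

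Windows that lay past the end of the nearest gene and windows that lay before its start had almost the same level. The log2 ratio of end to start was 0.019 ± 0.007 over all distances (n = 3, exact permutation p = 0.25, adjusted p = 0.35 over 7 comparisons). It was 0.056 ± 0.014 at 10 to 20 kb and −0.059 ± 0.019 at 100 to 200 kb, so the sign was not the same at all distances. With genes extended by 50 kb it was −0.024 ± 0.011, and with protein-coding genes only 0.10 ± 0.01. By the type of the nearest gene, the enriched share was 25.7% next to protein-coding genes, 25.7% next to lincRNA genes, 18.2% next to processed pseudogenes and 10.4% next to unprocessed pseudogenes. Of 2549 genes that were the neighbours of long runs and held valid windows, 44.3% had a body level above 1, against 26.5% of the neighbours of distal windows without a call and 39.9% of all genes.

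**Figure D4:**
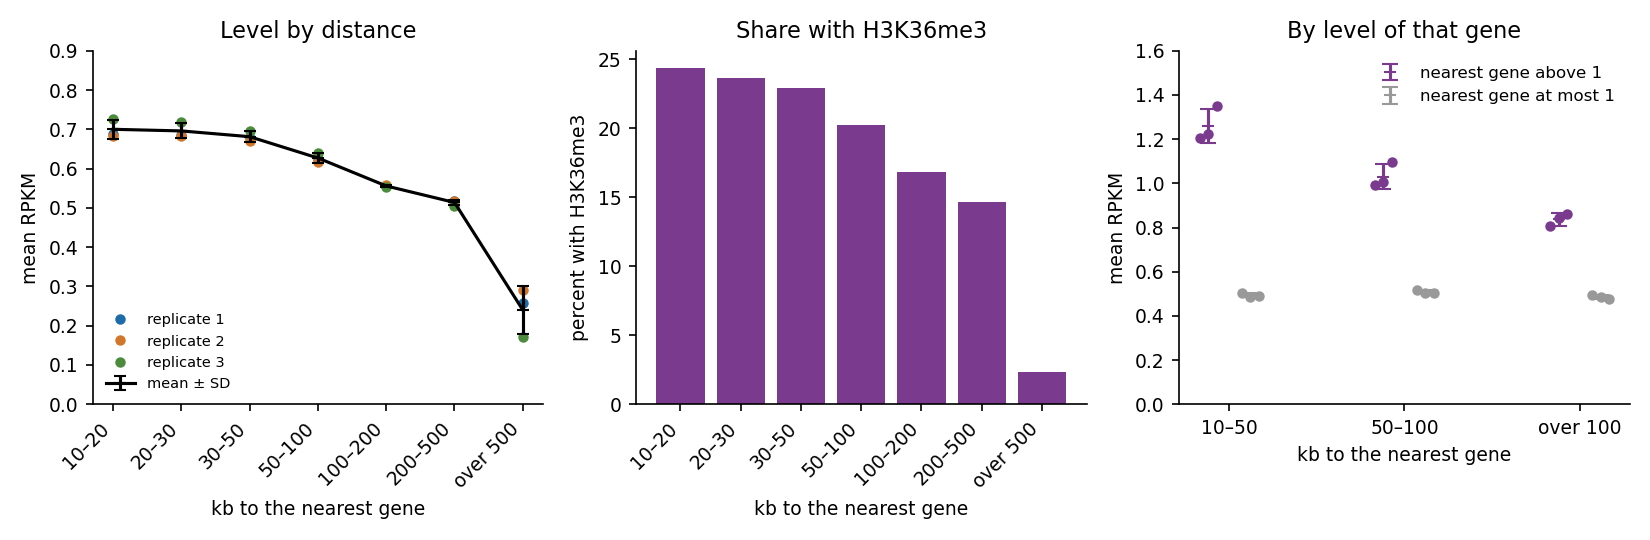
Distal windows without H3K4me3 and H3K27me3 by their nearest gene. Left, mean RPKM by distance in kb, as points per replicate and mean ± SD, from 0.700 at 10 to 20 kb to 0.514 at 200 to 500 kb. Middle, percent enriched for H3K36me3. Right, mean RPKM (points per replicate, bars mean ± SD) where the nearest gene was above 1 or at most 1 in the other 2 replicates: the sets are apart at each distance, 1.26 against 0.494 at 10 to 50 kb.

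A second annotation placed a part of the distal windows inside genes. RefSeq genes, which took no part in the choice, shared a base with 12.02% of the distal windows (4979) and with 5.46% of distal windows without a call, beside 6.85% of all distal windows without H3K4me3 and H3K27me3. The share was 8.51% over all windows more than 10 kb from GENCODE genes, whatever their calls. It was 9.48% for those with H3K27me3 alone and 8.56% for those with H3K4me3 alone. The other 36427 distal H3K36me3 windows were far from GENCODE genes and in no RefSeq gene either. Over all 395177 windows more than 10 kb from GENCODE genes, those inside RefSeq genes had 0.717, 0.693 and 0.690 RPKM in replicates 1, 2 and 3 and those outside 0.554, 0.540 and 0.509. The sets did not overlap, with a log2 ratio of 0.39 ± 0.04 (n = 3, exact permutation p = 0.25, adjusted p = 0.25 over 3 comparisons). It was 0.66 ± 0.05 over the windows without H3K4me3 and H3K27me3 calls and 0.29 ± 0.04 over windows under 25% soft-masked. Of 1362 RefSeq genes of at least 4 kb that lay wholly in this distal DNA, 1300 were long noncoding RNA genes, 282 had a mean above 1 and in 170 at least 50% of the windows were of the distal H3K36me3 kind. Over the bodies of these genes 13.3% of windows were of that kind, near the 10.5% of all windows more than 10 kb from GENCODE genes. Among all GENCODE genes with valid windows, of any length and type, 39.9% had a mean above 1. That set is not like for like with the 1362 RefSeq genes, of which the 282 were 20.7%. The bodies had 0.672 ± 0.016 RPKM, the stretch upstream 0.623 ± 0.035 and the stretch downstream 0.655 ± 0.019. The log2 ratio was 0.11 ± 0.05 to the upstream and 0.037 ± 0.011 to the downstream stretch (n = 3, exact permutation p = 0.25 and adjusted p = 0.25 for both).

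The distal windows were poorer in repeats than distal DNA as a whole. Soft-masked bases made up 29.8% of them, 35.6% of all windows this far from genes and 49.0% of distal windows without a call, against 24.6% of genic H3K36me3 windows. Distal windows with H3K27me3 alone (25.6%) or H3K4me3 alone (30.5%) were also poor in repeats. The enriched share of distal windows without H3K4me3 and H3K27me3 was 52.9% where under 10% of the window was masked and 2.56% where 75% or more was. Over the same bins, the share of all windows this far from genes with H3K27me3 was 58.5% and 1.02% and that with H3K4me3 37.8% and 2.74%, so that all 3 marks were called less where repeats took more of the window. How well short reads could be placed there was not tested. GC content was 40.1% in the distal H3K36me3 windows and 38.1% in those without a call, and was higher in the former in each of the 5 bins of masked share. CpG numbered 5.97 per kb against 5.01, and 9.09 in genic H3K36me3 windows. Set against all windows this far from genes, the distal windows had like GC content (39.98% in all) and fewer CpG (6.30 per kb in all). Windows there with H3K27me3 alone had 40.7% GC and 6.56 CpG per kb, and those with H3K4me3 alone 40.7% and 6.87.

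The share of distal windows without H3K4me3 and H3K27me3 that were enriched was 30.7% on chromosome 11, 27.5% on chromosome 10 and 26.6% on chromosome 15. It was 16.4% on chromosome 14 and 16.6% on the X chromosome. With each replicate called by itself, the share was 31.3% ± 2.1 on chromosome 11, 18.7% ± 2.3 on chromosome 14 and 20.5% ± 3.7 on the X (SD, n = 3). Chromosomes 11 and 14 were thus further apart than the spread between replicates. They are the highest and the lowest among the autosomes and the X, picked from these same libraries, so their gap is a description. Chromosomes 16 (17.1%) and 3 (17.2%) lay close to chromosome 14. On the Y chromosome 15 windows were valid. Only 2 of them lay more than 10 kb from genes, and these 2 were enriched.

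The longest run, run 1, covered 84 kb at chr11:52598001-52682000 and had 3.03, 3.08 and 3.66 RPKM in replicates 1, 2 and 3. All 3 replicates were high, and 40 of its 42 windows were above 1 in each. It kept its full 84 kb when any replicate was left out of the call. The nearest GENCODE gene with the mark was Fstl4, which codes for a follistatin-like secreted protein. It began 82.6 kb away and had 2.55 ± 0.16 (n = 3) over its body. RefSeq places the long noncoding RNA gene Gm30366 (52579552 to 52663853, plus strand) over 78.6% of the windows of the run.

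RefSeq genes also lay over 2 other runs of the 10 longest. Run 4, 74 kb at chr2:28342001-28416000, had 2.70, 2.61 and 2.94 RPKM in replicates 1, 2 and 3. GENCODE places the lincRNA gene Gm13373 (2.93 ± 0.39 over its body) 17.95 kb away, with the run before its start, whereas the RefSeq model of Gm13373 covers 86.5% of the windows of the run. On its other side Ppp1r26, which codes for a regulatory subunit of protein phosphatase 1, had 0.843 ± 0.196. Run 4 belonged to a domain of 134 kb that reached a gene. It came apart into 2 pieces, the longer one of 58 kb, without replicate 3. Run 7, 68 kb at chr4:142384001-142452000, had 1.97, 2.39 and 2.32, and all of its windows touched the RefSeq long noncoding RNA gene Gm42339. It came apart whichever replicate was left out, with longest pieces of 34, 50 and 60 kb without replicates 1, 2 and 3.

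No RefSeq gene lay over the other 7 of the longest runs. Run 2, 80 kb at chr12:9218001-9298000, had 2.42, 2.83 and 3.09 RPKM. Its farther neighbour Ttc32, a gene for a tetratricopeptide repeat protein, had 0.568 ± 0.265. The nearer one, the lincRNA gene Gm46323, had 1.05, 0.728 and 1.13 and was thus on both sides of 1, with 17 of its 49 windows enriched. It came apart into 2 runs, the longer one of 52 kb, without replicate 3. Run 3, 78 kb at chr10:72736001-72814000, had 2.45, 2.76 and 2.72 and stayed whole without any one replicate. Its nearer neighbour, the processed pseudogene Gm47094 17.5 kb away, had 0.326 ± 0.247, and the lincRNA gene Gm34776 126 kb away had 2.04 ± 0.89.

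Run 5, 74 kb at chr16:5646001-5720000, had 2.19, 2.60 and 2.52 RPKM and was part of a domain of 188 kb that touched no gene. It lay between the lincRNA gene Gm41414 (2.20 ± 0.24) and Rbfox1, the gene of an RNA-binding regulator of splicing, which began 165 kb away and had 1.55 ± 0.03. It came apart into 2 pieces of at most 46 kb whichever replicate was left out. Run 6, 70 kb at chr8:116388001-116458000, had 2.77, 3.59 and 3.20, stayed whole in each case and belonged to a domain of 208 kb that reached a gene. Run 10, 66 kb at chr15:62390001-62456000, had 2.37, 2.26 and 2.20 and began 11.9 kb past the end of Pvt1, a long noncoding RNA gene near the Myc oncogene, which had 2.88 ± 0.23 over its body. Its domain of 144 kb reached a gene. The longest piece of the run was 50 kb without replicate 1 and 26 kb without replicate 2, and the run stayed whole without replicate 3.

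Run 8, 66 kb at chr10:46032001-46098000, had 2.51, 2.87 and 2.68 RPKM although both neighbours were low, with 0.113 ± 0.195 in Gpx4-ps2, a processed pseudogene 156 kb away, and 0.535 ± 0.022 in the lincRNA gene Gm35430 131 kb away. Run 9, 66 kb at chr11:19416001-19482000, had 2.61, 2.44 and 2.78, between the pseudogene Gm12026 (1.82 ± 0.33) and the lincRNA gene Gm12027 (0.170 ± 0.170). The domains of runs 8 and 9 ended with the runs themselves at 66 kb. Run 8 came apart into 2 pieces, the longer one of 54 kb, without replicate 1. Run 9 came apart into 2 pieces, the longer one of 58 kb, without replicate 3.

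The 3 runs of at least 5 windows that lay farthest from genes were short and rested on fewer reads. Run 11, 10 kb at chr6:11434001-11444000, was 454 kb from AA545190 and 456 kb from Ndufa4, which codes for a subunit of the respiratory chain, and had 2.39, 1.43 and 2.23 RPKM from 139 reads. Run 13, 20 kb at chr1:141974001-141994000, had 1.71, 2.14 and 1.86 from 235 reads and was 427 kb from the nearest gene. Run 12, 10 kb at chr6:9700001-9710000 and 451 kb from Nxph1, the gene of a secreted ligand of neurexins, had 1.52 and 1.74 in replicates 1 and 2 but 0.541 in replicate 3. None of its 5 windows was above 1 in each replicate, and without replicate 1 a single window of 2 kb was left.

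**Figure D5:**
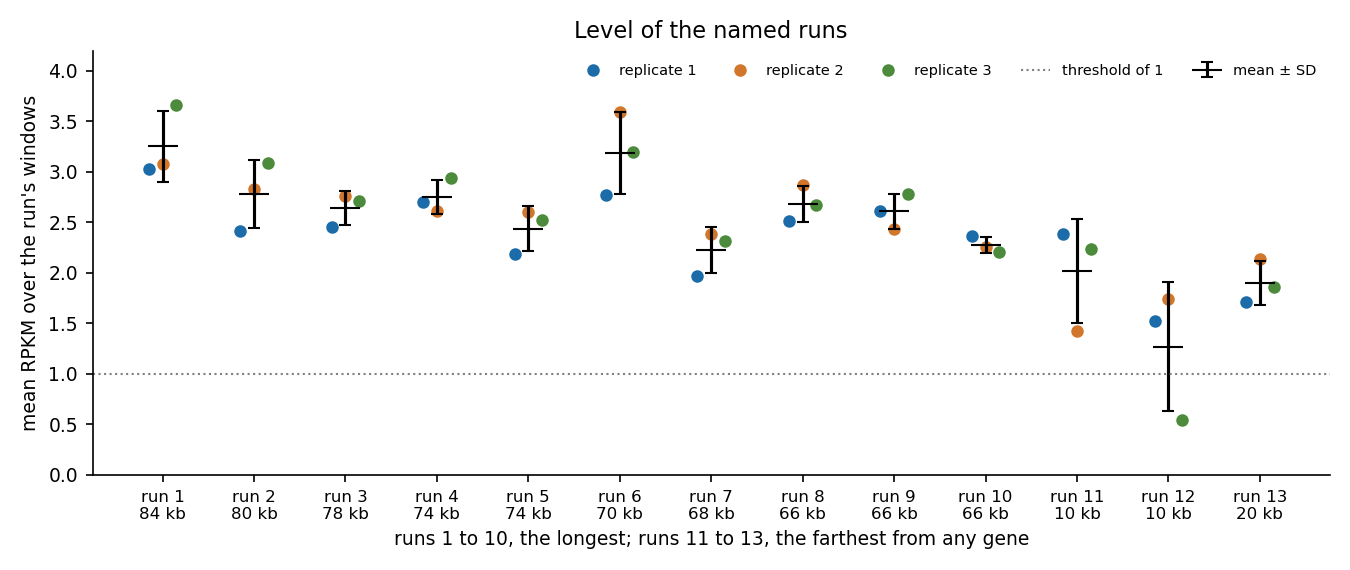
Mean RPKM over the windows of each named run, as points per replicate with the mean ± SD (n = 3). Runs 1 to 10, the longest, lie at 1.97 or more in every replicate, and run 12, far from genes, is at 0.541 in replicate 3, under the dotted threshold of 1.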

How the data were processed

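H3K36me3 was measured in 3 replicates of a single group. Per the study's methods, the authors mapped trimmed reads to GRCm38 (Bowtie2 2.2.9, per the submitters' processing notes), counted them in windows of 2 kb and removed windows with very low or very high input signal. Whether duplicate reads were removed is not given in the sources used here. The deposited RPKM values are linear and per replicate, and 1 read equals 0.136, 0.396 and 0.338 RPKM in replicates 1, 2 and 3: all values were whole multiples of these steps within 0.01 reads. The deposited categories name the marks called in each window, and those of H3K4me3 and H3K27me3 come from earlier libraries of the same laboratory. The deposited H3K36me3 call equalled a mean above 1 in every window, with 0 differences.

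The windows, gene lists and tests were chosen with earlier results of these data known. Genes came from GENCODE M21 (55450 genes on the chromosomes used) and, as a second annotation, RefSeq GRCm38.p6. A gene's level is the mean over its valid windows. Tested levels were log2 ratios of mean RPKM within a replicate, without a pseudocount, and were tested by exact permutation of signs over 3 replicates, two-sided. The labels do not say whether the pools came from separate animals, so p-values measure the spread between pools. Named are the 10 longest runs, the 3 runs of at least 5 windows farthest from genes and their nearest genes. Scripts ran in Python 3.11.15 with numpy 2.4.6, pandas 2.3.3 and scipy 1.17.1 and were tested on simulated reads. Alternatives covered the threshold, the replicates, the extension and type of genes, read minimums and gaps. RefSeq genes counted beside GENCODE and a limit on soft-masked bases were added after seeing the data. The sequence of 1 of the 5 longest runs is not reported here.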

Additional observations from a re-analysis of the deposited data

How the results depend on the processing

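No paired analysis was possible because the 3 samples form 1 group and no other group shares their replicate numbers (classes of windows were compared within each replicate). Of 85 recomputed counts and shares, 51 stayed within the limits set for a change, which were 1.5 times for counts and 1 SD between replicates for other values. Of 39 recomputed log2 ratios, 38 kept their sign and 1 reversed. Their p could not pass a threshold under any setting, so only sign and size are compared. The cause of each change was not tested beyond what the alternative itself does. At thresholds of 1.5 and 2 RPKM there were 26987 and 16703 distal windows, 13.8% and 8.56% of distal windows without H3K4me3 and H3K27me3 were enriched, 45.8% and 34.8% of the chosen windows passed in each replicate, 5.12% and 1.35% lay in domains that reached a gene, 1357 and 634 runs spanned at least 10 kb, GC content was 2.43 and 2.71 percentage points above that of windows without a call, and 69.9% and 63.2% of long runs had H3K4me3 within 10 kb. With windows above 1 in each replicate, these were 23364 windows, 11.97% enriched, 1.93% in domains that reached a gene, 924 long runs and 2.38 points of GC. With genes extended by 50 kb there were 16669 windows, 18.4% enriched, 916 long runs and 1.65 points of GC, and the log2 ratio of gene ends to gene starts reversed to −0.024. With protein-coding genes only, there were 65899 windows, 24.1% enriched, 3.30% in domains that reached a gene and 3783 long runs. Bridging gaps of 1 window put 20.6% of the windows in domains that reached a gene. H3K4me3 lay near 60.3% of long runs within 4 kb and near 87.3% within 20 kb, against 31.8% and 69.1% of distal windows without a call. With reads drawn down to the shallowest replicate and the windows chosen anew from them, 48.8% of the chosen windows passed in each replicate. The following 2 settings were chosen after seeing the data. With windows under 25% soft-masked, 36.4% were enriched, 62.8% of them in each replicate, and the GC difference was 4.04 points. Counting RefSeq genes as genes kept 7 counts and shares within the limits and the sign of 3 log2 ratios.

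Without 1 replicate each, the windows numbered 41558 to 42239 and long runs 2094 to 2319, the enriched share was 21.3% to 21.6%, and the log2 ratio was −0.47 to −0.31 against genic windows, 2.11 to 2.44 against windows without a call, 0.015 to 0.022 for gene ends against starts and 0.37 to 0.41 for RefSeq genes. Domains that reached a gene held 7.13% to 9.58%, H3K4me3 lay near 73.3% to 75.3% of long runs, the GC difference was 1.91 to 2.00 points and the soft-masked difference −19.2 to −18.2 points. The share above 1 in each replicate was not recomputed without a replicate. With medians, no ratio to distal windows without a call could be had, since their median was 0 in replicates 2 and 3.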
